A study of Mus musculus with 6 samples.

Results

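A set of 36 genes that are characteristic of astrocytes was followed through 6 RNA-seq libraries of cells sorted as neurons from the cortex around an infarct. The genes were taken by name out of 24419 gene symbols in the deposited table. Of these genes, 29 are called homeostatic here because they are not on the list of reactive genes. They cover water and ion handling, metabolism, secreted lipid carriers and protease inhibitors, and metal binding. Among them are Mt1 and Mt2, which stress also induces. The other 7, Gfap, Vim, Serpina3n, Lcn2, Cd44, S1pr3 and Cp, are genes that astrocytes raise after injury. All 36 were listed. The tests covered the 14523 genes whose mean reached 1 CPM, reads scaled to library size, and all 36 were among them, Lcn2 through a single vehicle library.

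Wild type male C57BL/6N mice underwent middle cerebral artery occlusion for 60 min in both groups. Vehicle or 600 ng of the fatty acid 15-HETrE, in 150 µL of phosphate-buffered saline, was given into a vein at 24, 48 and 72 h, and cortex was taken after 4 days. Cells were kept if they carried Thy1 and lacked ACSA2, CD31, CD45 and O4, so that astrocytes, which carry ACSA2, were meant to be left out. Each group had 3 libraries, here called vehicle 1, vehicle 2 and vehicle combined, and 15-HETrE 1, 15-HETrE unnumbered and 15-HETrE combined, after their column names. Vehicle 1, vehicle 2 and 15-HETrE 1 share a name prefix (the first prefix), 15-HETrE unnumbered has another, and the combined libraries have neither; what combined stands for was not given in the sources used here. Levels are listed below in that order of libraries. Nor do the sources say whether the libraries came from separate animals, whether animals were pooled, or how old they were, so that p-values describe the spread between libraries, which may be technical.

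Astrocytes surround synapses and blood vessels, clear glutamate and potassium, make glutamine and supply lipids and lactate to neurons. Aqp4, Mlc1 and Hepacam belong to the membrane of their endfeet, Aldh1l1, Aldoc, Glul and Acsbg1 to their metabolism, and Sox9 to their transcriptional identity. After ischemia they become reactive: they extend filaments of GFAP and vimentin and secrete acute-phase proteins such as SERPINA3N, lipocalin 2 and ceruloplasmin. Several of these genes are not restricted to astrocytes. Vim, Cd44, Id3 and F3 are also transcribed in fibroblasts and vessel cells, Apoe and Cst3 in microglia, Glul in oligodendrocytes, and Sparcl1, Cpe and Mt3 in neurons.

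The libraries held 5405245 to 22558400 reads assigned to genes, and the combined libraries were the shallowest, with 5405245 and 7993084 reads. The 10 pan-neuronal markers, for the labelled cell type, summed to 1996 to 3435 CPM with vehicle and 3294 to 6243 CPM with 15-HETrE, and none was at 0. Astrocyte transcripts were present in every one of the 6 libraries despite the sort. Atp1b2, which encodes the protein that carries the ACSA2 antigen, measured 265, 219 and 769 CPM with vehicle (1, 2 and combined) and 351, 180 and 1007 CPM with 15-HETrE (1, unnumbered and combined). The 36 genes together took 0.556% to 1.57% of a library's scaled reads, lowest in 15-HETrE unnumbered and highest in 15-HETrE combined. Of the 5 defining markers Aqp4, Aldh1l1, Aldoc, Gfap and Sox9, none was at 0 in any library, and their summed level ranged from 97.9 to 1125 CPM with vehicle and from 207 to 1968 CPM with 15-HETrE. In bulk RNA, more astrocytes and more RNA per astrocyte cannot be told apart.

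Per kilobase of exon, which allows levels to be set against each other between genes, the most abundant of the 36 were Glul, with a mean of 422 CPM per kb over the 6 libraries, Sparcl1 with 412 and Cpe with 384. Glul encodes glutamine synthetase, Sparcl1 a secreted synapse-promoting matricellular protein, and Cpe a carboxypeptidase that processes neuropeptides. The order differed between libraries: the Cpe mean included 1061 CPM per kb in 15-HETrE combined, against 125 to 420.0 elsewhere. Serpina3n, next with a mean of 302 CPM per kb, was the highest of the 36 in vehicle 1, vehicle 2 and 15-HETrE unnumbered, with 447, 439 and 369 CPM per kb. In 15-HETrE combined it stood at 36.5 CPM per kb. Cbs, the first enzyme of transsulfuration, with 1.62 CPM per kb, and Lcn2, with 0.525, were the least abundant.

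**Figure D1:**
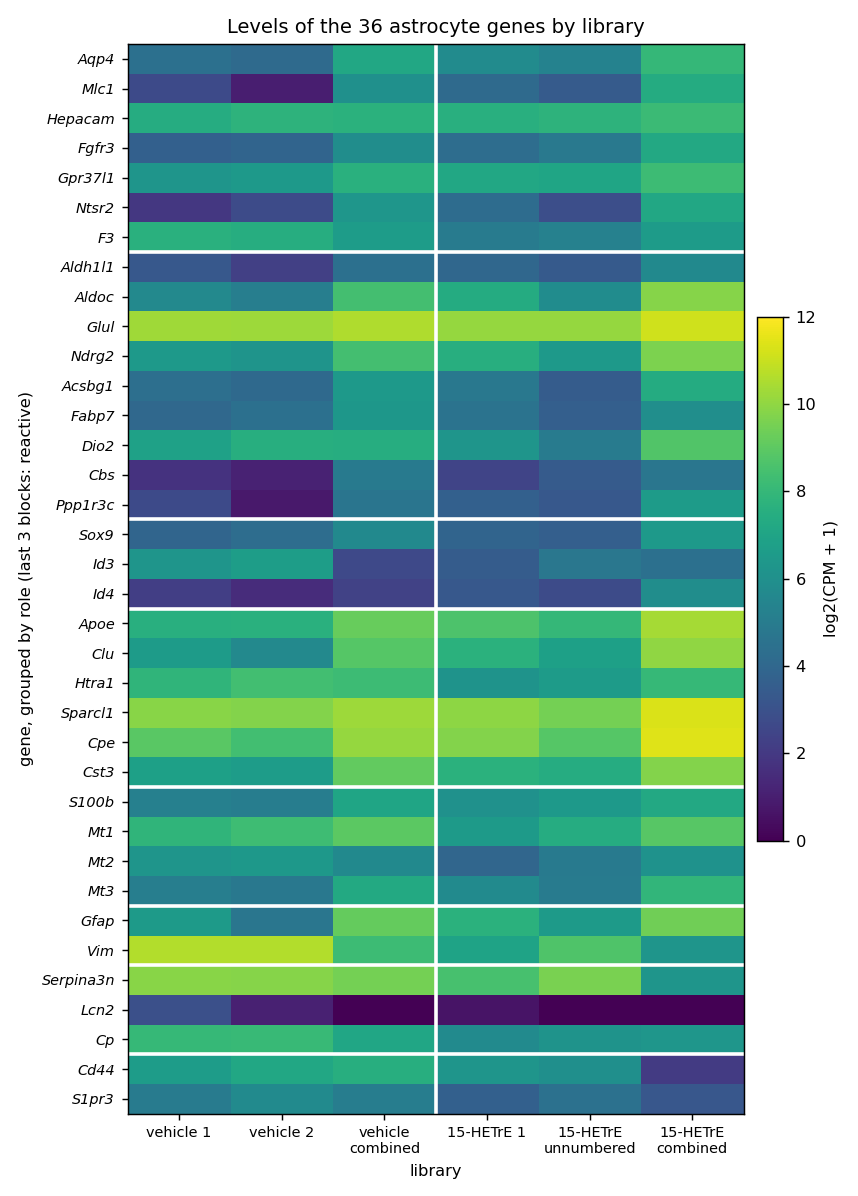
Each row is 1 of the 36 genes, grouped by role, and each column a library; colour gives the level as log2(CPM + 1), and the white vertical line separates vehicle from 15-HETrE. Most rows are brightest in the combined library of each group, while Vim and Cp are brightest in vehicle 1 and vehicle 2, and Lcn2 is at 0 in 3 libraries.

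The combined libraries were set against the other 4 because their names mark them as a separate kind of sample, with treatment kept in the fit (limma on log2(CPM + 1), two-sided, Benjamini-Hochberg adjustment over all 14523 genes). Homeostatic astrocyte transcripts were higher in the combined libraries. Of the 36 genes, 18 passed as higher, where 1.25% of all genes tested did, and 1, Vim, passed as lower, where 0.93% of all genes did. The 18 were 17 of the 29 homeostatic genes and Gfap. The median difference of the homeostatic genes was 1.85 on the log2 scale, against -0.12 over all genes, and that of the reactive genes was -1.17. That reactive median is the value of Lcn2, which had 0 reads in both combined libraries. Lcn2 entered the tests only through a vehicle library that is not combined, which fixes its sign. With a filter at 5 CPM, which leaves Lcn2 out, the reactive median was -1.05. The count of 18 depended on the settings. Of the 36, 0 passed as higher without the treatment term and 0 with no filter on low genes, where 0 of all genes did in either. The homeostatic median was 1.85 in both of these settings. Without vehicle combined, which leaves 1 combined library, the homeostatic median was 2.14. The count was 2, Aqp4 and Cst3, with library weights, where 8 of all genes passed as higher. It was 10 without 15-HETrE unnumbered, where 37 of all genes did. It was 14 with edgeR's quasi-likelihood test, where 0.661% of all genes passed as higher, and 25 with DESeq2, where 4.76% did; DESeq2 called Vim lower, with 5.25% of all genes. At an unadjusted p under 0.05 (limma), 26 of the 36 were higher, where 8.26% of all genes were, and 3 were lower, where 12.9% were. The reactive median was -0.34 without 15-HETrE combined, -0.73 without vehicle 1 and -0.44 with a pseudocount of 5.

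Both combined libraries lay above all 4 others for 23 of the 36 genes, where 11.3% of all genes did, and below all 4 for none, where 15.4% did. The fitted difference is the mean of the difference within vehicle and that within 15-HETrE, which share no library. Giving it by group thus adds no second test. The difference was positive in both groups for 26 of the 29 homeostatic genes, against 24.2% of all genes. It was over 1 on the log2 scale in both for 18, against 3.48%. Of the 7 reactive genes it was positive in both for Gfap alone.

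Among the membrane proteins, Mlc1, a protein of endfoot junctions, had the widest difference of all 36 genes. Its vehicle levels were 5.38, 1.03 and 64.7 CPM, and its 15-HETrE levels 16.7, 9.85 and 165 CPM, the combined library last. The combined library was thus 20.2-fold and 12.4-fold above the mean of the others of its group (log2 difference 3.89, SE 0.53, adjusted p 0.0110, limma). Of 14523 genes, Mlc1 had the second largest positive difference; the first and the third were Slc39a12, a zinc transporter, and Etnppl, an enzyme of phosphoethanolamine breakdown. These 2 are also astrocyte genes, on a list of 25 other homeostatic genes; Slc39a12 and Etnppl are named after their values were seen.

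Aqp4, the water channel of the endfeet (chromosome 18, 15389496 to 15410982, GRCm38), gave 20.5, 16.9 and 146 CPM with vehicle, and 54.3, 38.9 and 254 CPM with 15-HETrE. Both combined libraries lay well above the other 4, by 7.81-fold in vehicle and 5.44-fold in 15-HETrE (log2 difference 2.67, SE 0.28, adjusted p 0.00492, limma). Ntsr2, a neurotensin receptor, also passed, at 2.80, 5.67 and 78.8 CPM with vehicle and 17.7, 6.39 and 145 CPM with 15-HETrE. Fgfr3, a growth factor receptor, passed with a log2 difference of 2.40. Gpr37l1, an orphan receptor of astrocytes, was higher by 2.39-fold and 2.16-fold. Hepacam, the adhesion partner of MLC1, did not follow. It lay between 169 and 219 CPM in 5 libraries and at 290 CPM in 15-HETrE combined, and its groups of libraries overlapped. F3, tissue factor, went opposite ways, at 0.536-fold in vehicle combined and 2.83-fold in 15-HETrE combined.

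Of the 9 genes of enzymes and metabolism, 5 passed as higher. Aldoc, the aldolase of astrocytes, measured 48.8, 34.0 and 339 CPM with vehicle. Its 15-HETrE levels were 164, 55.5 and 897 CPM, so that the combined library was 8.18-fold above the others in either group (log2 difference 3.12, SE 0.38, adjusted p 0.00800, limma). Ndrg2, Acsbg1 (which activates long-chain fatty acids), Ppp1r3c (which targets a phosphatase to glycogen) and Fabp7 (a fatty acid binder of radial glia and astrocytes) also passed, with log2 differences of 2.34, 2.74, 2.98 and 1.98. Cbs did not (log2 difference 2.62, adjusted p 0.0602, limma), although its combined libraries, at 29.7 and 25.1 CPM, lay above the others, at 1.21 to 9.97 CPM. Aldh1l1, a folate enzyme much used as an astrocyte marker, rested on 84 to 378 reads per library. Both its combined libraries lay above the others, at 20.9 and 51.1 CPM against 3.78 to 15.3 CPM, with an adjusted p of 0.0793 (limma). Glul had a small difference that did not pass (log2 difference 0.66, adjusted p 0.197, limma). Both its combined libraries lay above the others, at 1531 and 2212 CPM against 1100 to 1237 CPM. Dio2, which activates thyroid hormone, was 1.21-fold higher in vehicle combined and 8.04-fold higher in 15-HETrE combined.

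Of the secreted proteins, Cst3, the protease inhibitor cystatin C, had the smallest adjusted p of the 36 genes. Its levels were 113, 97.8 and 549 CPM under vehicle, against 204, 169 and 887 CPM under 15-HETrE (log2 difference 2.31, SE 0.21, adjusted p 0.00290, limma). Both combined libraries lay above all 4 others. The lipid carriers Clu and Apoe were higher by 2.77 and 1.85 on the log2 scale, and Cpe by 1.79; these 3 passed as well. Sparcl1 and Htra1, a serine protease, differed by 1.00 and 0.90 and did not pass (adjusted p 0.119 and 0.176, limma). S100b, a calcium-binding protein of astrocytes, passed with a difference of 1.45. Of the transcriptional regulators, Sox9 passed with a difference of 2.19. Id4, an inhibitor of differentiation, gave 3.74, 1.84 and 4.14 CPM under vehicle, against 8.83, 5.79 and 58.0 CPM under 15-HETrE. Its paralog Id3, at 74.8, 100.2 and 5.22 CPM under vehicle, had the opposite order to most of the list there.

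**Figure D2:**
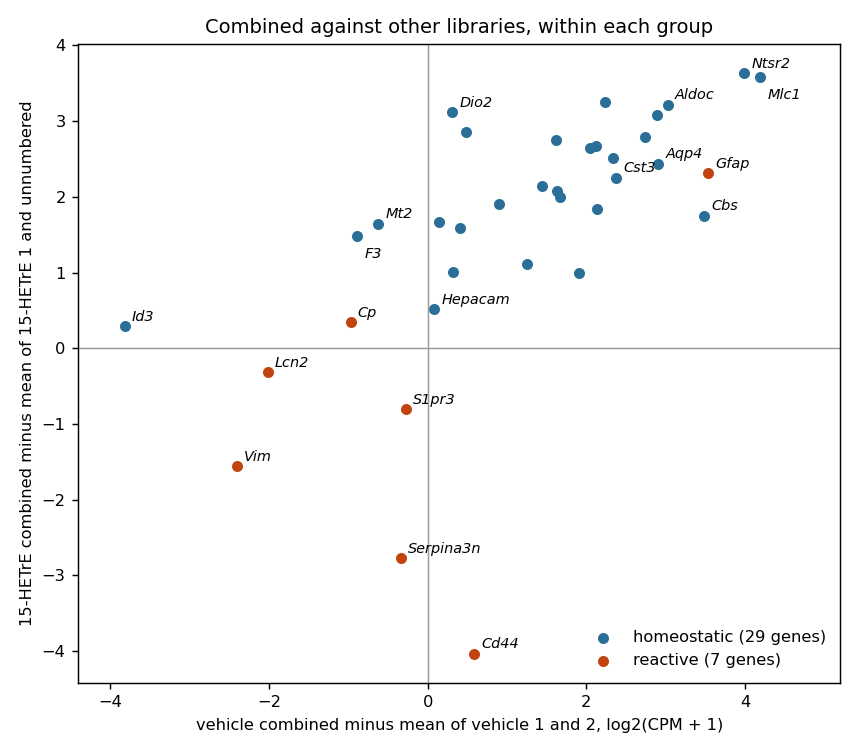
Each point is 1 gene; the horizontal axis gives vehicle combined minus the mean of vehicle 1 and vehicle 2, the vertical axis 15-HETrE combined minus the mean of 15-HETrE 1 and unnumbered, both as differences of log2(CPM + 1). Of the 29 homeostatic genes, 26 lie at the upper right, where both differences are positive; Gfap is there too, and no other reactive gene is.

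The reactive genes did not share this pattern, apart from Gfap, the intermediate filament protein of astrocytes. Gfap (chromosome 11, 102887336 to 102900912, GRCm38) measured 92.9, 24.8 and 568 CPM with vehicle and 199.5, 91.4 and 676 CPM with 15-HETrE (log2 difference for combined 2.92, SE 0.51, adjusted p 0.0265, limma). The call was lost in edgeR, with library weights, with no filter, without the treatment term, and without vehicle combined or 15-HETrE unnumbered. Set against Aldoc, the difference between them on the log2 scale lay between -0.44 and 0.92 in the 6 libraries. Against Vim, the other filament gene, it ranged from -5.94 in vehicle 2 to 3.13 in 15-HETrE combined.

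Vim (chromosome 2, 13573927 to 13582826, GRCm38), which is transcribed in many mesenchymal cells, gave 1585, 1583 and 298 CPM with vehicle. With 15-HETrE it gave 124, 416 and 76.5 CPM. The combined libraries differed from the others by -1.98 on the log2 scale (SE 0.42, adjusted p 0.0438, limma), a call that was lost with a pseudocount of 0.5, with a filter at 5 CPM, with no filter, with library weights, without the treatment term, in edgeR, and without vehicle combined, 15-HETrE unnumbered or 15-HETrE combined.

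Markers of other cells differed between the same libraries, and their part in these results was not tested. The summed level of 7 fibroblast markers (collagens, Dcn, Lum, Fbln1 and Postn, leaving out Pdgfra, which oligodendrocyte precursors share) was 8342, 6267 and 66.2 CPM under vehicle, with 1 of them, Postn, at 0 in vehicle combined. It was 129, 1347 and 35.95 CPM under 15-HETrE. Of the 9 microglia and macrophage markers 8 passed the filter, and these summed to 24.4 to 98.6 CPM under vehicle and 28.5 to 89.9 CPM under 15-HETrE, with the combined libraries highest; 1 of the 9 was at 0 in vehicle combined and in 15-HETrE unnumbered. The 8 oligodendrocyte markers summed to 14741 to 22226 CPM under vehicle and 15822 to 30893 CPM under 15-HETrE, with none at 0, and did not separate the combined libraries from the others. The 7 oligodendrocyte precursor markers did in their sum, with 4407 and 3634 CPM in vehicle combined and 15-HETrE combined. In the other 4 they summed to 2255 to 3242 CPM, with none at 0. All 7 had positive differences and 4 lay higher without overlap, where 11.3% of all genes did. Of the 7, 0 passed (smallest adjusted p 0.124, limma), where 1.25% of all genes did. Within vehicle the median was 1.01, with 7 positive, and within 15-HETrE 0.21, with 5 positive and 2 negative.

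The other comparison was between 15-HETrE and vehicle. None of the 36 genes passed in either direction, as none of the 14523 genes tested did (0.0% higher and 0.0% lower, limma); the smallest adjusted p of the 36 was 0.334, for Cp. edgeR's quasi-likelihood test also called 0 of all genes. DESeq2 called 1 of the 36, Cp, as lower, where 0.895% of all genes were called lower and 0.241% higher. At an unadjusted p under 0.05 (limma), 1 of the 36 was higher, where 4.27% of all genes were, and 8 were lower, where 5.23% were. The 8 were Cp, F3, Vim, S1pr3, Htra1, Cd44, Serpina3n and Mt2, and the 1 was Id4. Library weights, which change how much each library counts, moved the calls to 14 higher and 9 lower, where 7.29% and 9.41% of all genes were called. Without both combined libraries, 2 genes were lower, Cp and F3, where 0.516% of all genes were.

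The sets had medians of opposite sign. The 29 homeostatic genes had a median difference of 0.77 on the log2 scale and 22 were positive, while the 7 reactive genes had a median of -1.62 and 6 were negative; over all genes the median was 0.02. Lcn2, 1 of the 6, entered the tests only through a vehicle library, which fixes its sign; with a filter at 5 CPM, which leaves it out, 5 of 6 were negative with a median of -1.64. The 10 pan-neuronal markers had a median of 0.93 with 9 positive, and 5 had an unadjusted p under 0.05 (limma); their part in the homeostatic result was not tested. In the 3 libraries of the first prefix the medians were 0.83 and -1.39, and between the combined libraries 0.87 and -1.81. For 15-HETrE unnumbered against vehicle 1 and vehicle 2 they were 0.19, with 18 of 29 positive, and -0.96. Of the homeostatic genes, 18 were positive in both the first prefix and the combined libraries, against 30.9% of all genes, and of the reactive genes 5 were negative in both, against 26.3%. The homeostatic median was 0.02 without 15-HETrE combined, 0.43 without vehicle 1 and 0.33 without vehicle 2, and it was 1.35 without vehicle combined. The reactive median lay between -1.81 and -1.03 when any 1 library was left out, and -1.03 was the value without 15-HETrE combined.

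**Figure D3:**
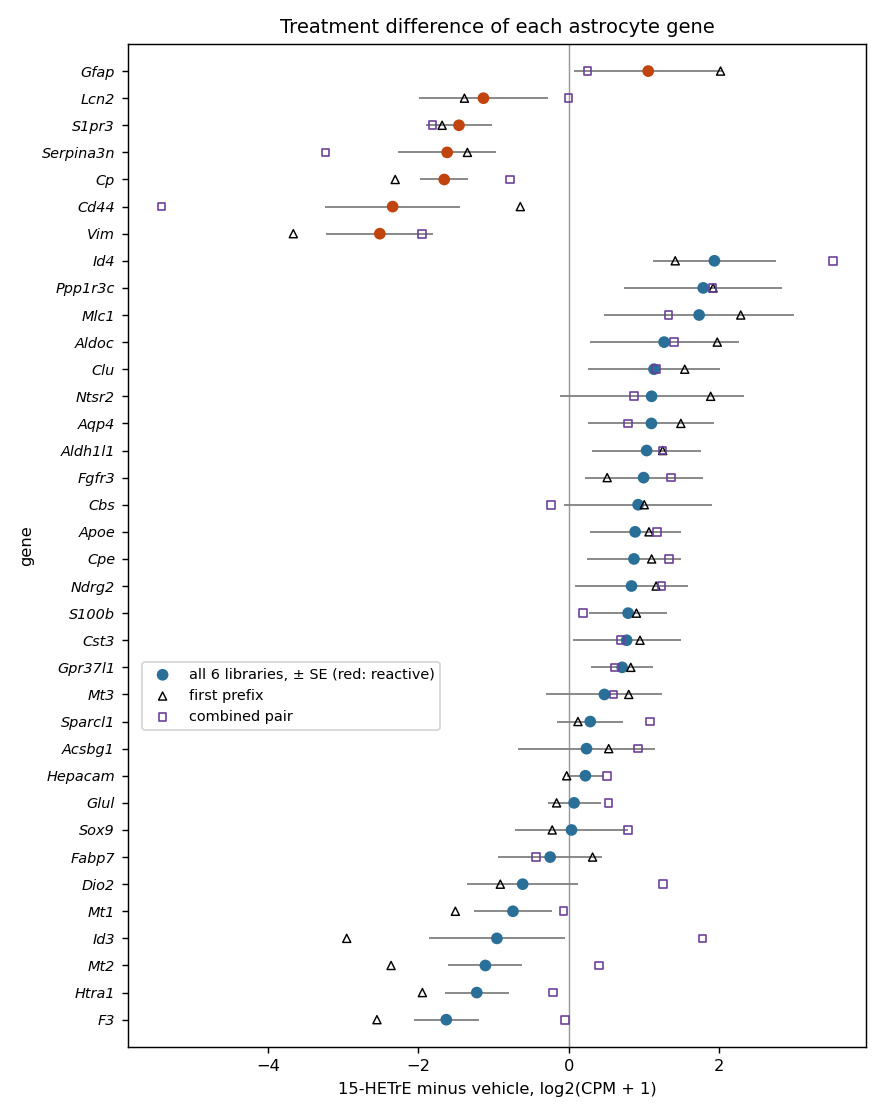
For each gene, filled circles give 15-HETrE minus vehicle on the log2(CPM + 1) scale over all 6 libraries with the standard error (reactive genes in red), triangles the difference in the first prefix, and squares that of the combined pair. None passes the test; 6 of the 7 reactive genes lie left of 0, Gfap lies right of it, and Id3 has triangle and square on opposite sides.

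Cp, ceruloplasmin, a copper-carrying ferroxidase (chromosome 3, 19957054 to 20009145, GRCm38), measured 260.1, 271 and 135 CPM with vehicle, and 52.7, 71.5 and 78.0 CPM with 15-HETrE. All 3 15-HETrE libraries lay below all 3 vehicle libraries (222 ± 75.6 against 67.4 ± 13.1 CPM, SD, n = 3 each; log2 difference -1.66, SE 0.32, adjusted p 0.334, limma). Exons of Cp overlap those of Hps3 on the other strand, which had a mean of 33.6 CPM; whether counting used strand was not given in the sources.

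Cd44, the hyaluronan receptor, gave 99.6, 146 and 181 CPM under vehicle and 76.8, 61.3 and 3.24 CPM under 15-HETrE. The groups did not overlap, and the last value rested on 24 reads. S1pr3, a receptor for sphingosine-1-phosphate, gave 31.1, 51.7 and 32.9 CPM under vehicle and 11.8, 21.3 and 8.65 CPM under 15-HETrE, again without overlap (log2 difference -1.46, SE 0.44, adjusted p 0.422, limma). The difference of S1pr3 was -1.69 in the first prefix and -1.81 between the combined libraries. Cd44 differed by -0.64 and -5.43.

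Serpina3n, a secreted serine protease inhibitor of a family of close paralogs that may share reads, had levels of 922, 906 and 721 CPM with vehicle and 359, 761 and 75.4 CPM with 15-HETrE. The 15-HETrE unnumbered library lay inside the vehicle range, so the groups overlapped (850 ± 112 against 398 ± 345 CPM, SD, n = 3 each; log2 difference -1.62, adjusted p 0.497, limma). Vim overlapped as well, since 15-HETrE unnumbered lay above vehicle combined (1155 ± 742 against 205 ± 184 CPM, SD, n = 3 each; log2 difference -2.51, adjusted p 0.394, limma). Lcn2, lipocalin 2, was barely measured: it had 140 and 26 reads in vehicle 1 and vehicle 2, 12 in 15-HETrE 1 and 0 in the other 3 libraries. There a count of 0 allows up to 0.540 CPM in vehicle combined, 0.179 CPM in 15-HETrE unnumbered and 0.405 CPM in 15-HETrE combined (3 reads, counting error only).

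**Figure D4:**
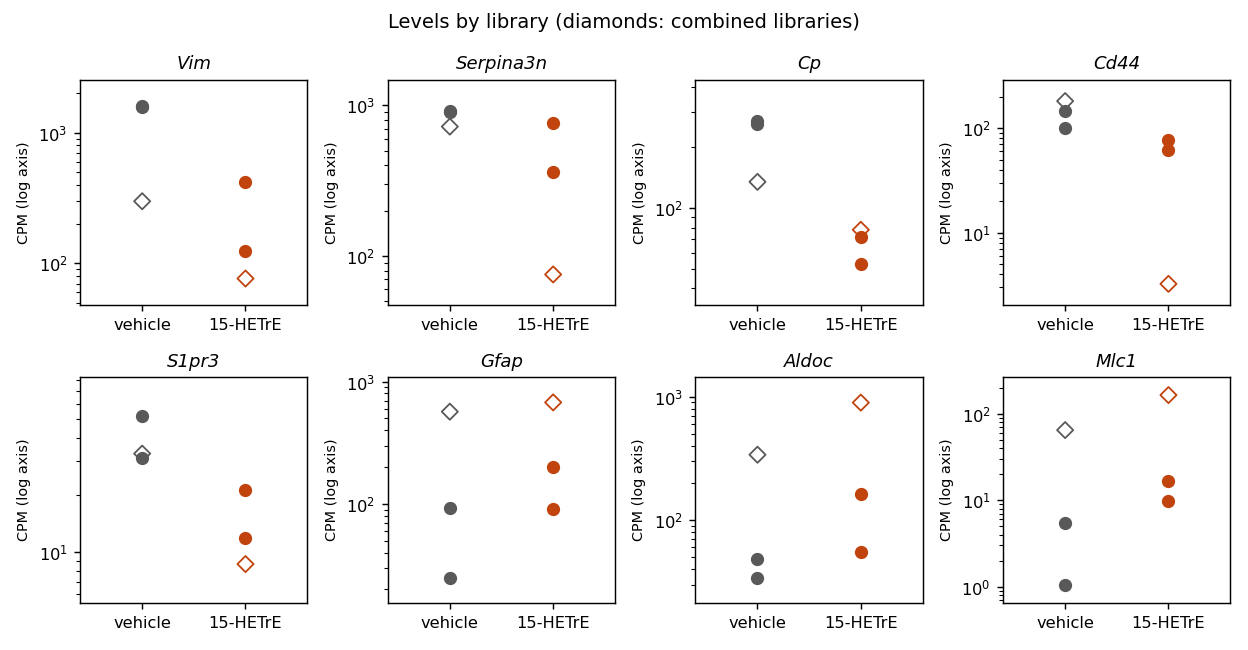
CPM on a log axis in each library of 5 reactive genes other than Lcn2, of Gfap and of the homeostatic genes Aldoc and Mlc1, with combined libraries as open diamonds. For Cp, Cd44 and S1pr3 the 3 vehicle points lie above the 3 15-HETrE points; for Gfap, Aldoc and Mlc1 both diamonds lie above all circles.

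Of the fibroblast, pericyte and cell division markers 0 passed for treatment, where 0 of all 14523 genes did (limma). At an unadjusted p under 0.05 (limma), 5 of 6 cell division, 4 of 8 pericyte and 1 of 8 fibroblast markers were lower. Of all genes 5.23% were. Lower without overlap were 5, 4 and 0 of them, where 8.32% of all genes were. The 7 fibroblast markers without Pdgfra had a median difference of -4.84 in the first prefix. Between the combined libraries it was 0.72, with 4 positive and 3 negative and sums of 66.2 and 35.95 CPM. The reactive medians were -1.39 and -1.81 in the same order. Between the combined libraries Vim, Serpina3n, Cd44 and S1pr3 each differed by -1.81 or below, Cp by -0.78 and Gfap by 0.25. The part of fibroblast RNA in the reactive difference was not tested. The 6 cell division markers summed to 373 to 513 CPM under vehicle and 93.1 to 146 CPM under 15-HETrE. Their median differences were -2.10 in the first prefix and -1.79 between the combined libraries. The 8 pericyte and smooth muscle markers summed to 1076 to 1328 CPM under vehicle and 472 to 827 CPM under 15-HETrE, with none at 0. Neither sum overlapped between the groups; their part in the reactive difference was not tested. Of the division markers 1, Cdk1, was at 0 in both combined libraries.

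Among homeostatic genes, 1 was higher without overlap between the groups, Id4, where 6.84% of all genes were, and 1 was lower, F3, where 8.32% were. With the 3 reactive genes that did not overlap, 4 of the 36 were lower. F3 measured 195, 175 and 99.3 CPM with vehicle and 30.7, 37.1 and 96.0 CPM with 15-HETrE. Its combined libraries nearly met, so that the difference was -2.55 in the first prefix and -0.048 between the combined libraries. Id4 overlaps the antisense gene A330033J07Rik, which had a mean of 2.57 CPM. For Aldoc, Clu, Apoe, Cpe, Ndrg2, Cst3 and Aqp4 the difference was 0.95 or more in the first prefix and 0.69 or more between the combined libraries, and none passed. These genes are named with their values known. Of the 29 homeostatic genes, 9 were negative in the first prefix and 5 between the combined libraries. For 15-HETrE unnumbered against vehicle 1 and vehicle 2, the named genes ran from 0.11 for Ndrg2 to 1.02 for Aqp4. The libraries of a group were far apart, as for Aldoc with 141 ± 172 CPM under vehicle and 372 ± 458 CPM under 15-HETrE (SD, n = 3 each). Htra1 differed by -1.22 on the log2 scale, with 227, 325 and 300.0 CPM under vehicle and 69.6, 94.5 and 259 CPM under 15-HETrE, and its groups overlapped.

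The 3 metallothionein genes lie next to each other on chromosome 8 and encode small cysteine-rich proteins that bind zinc and copper; Mt1 and Mt2 are induced in many cells by metals, glucocorticoids and stress, and Mt3 is the brain form. Mt1 and Mt2 are close paralogs and may share reads. Mt3 followed the homeostatic genes, with 34.1, 26.8 and 156 CPM under vehicle and 53.4, 30.9 and 237 CPM under 15-HETrE. Mt1 gave 229, 312 and 499 CPM under vehicle and 93.2, 170.1 and 476 CPM under 15-HETrE. Both its combined libraries also lay above the other 4, without passing (log2 difference 1.40, adjusted p 0.0543, limma). Mt2 gave 74.7, 82.9 and 50.9 CPM under vehicle and 14.5, 30.02 and 67.6 CPM under 15-HETrE. In the first prefix Mt1 and Mt2 differed by -1.51 and -2.37 and Mt3 by 0.80, and between the combined libraries the 3 differed by -0.068, 0.40 and 0.60.

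The promoters of the metallothioneins are shown because Mt1 and Mt2 had the opposite sign to Mt3 in the first prefix. Between the combined libraries Mt2 and Mt3 had the same sign. They run from 250 bases before to 50 bases after the transcript start (RefSeq, GRCm38.p6) and were found for 31 of the 36 genes. The core of the metal response element, the binding site of the metal-sensing factor MTF1, was searched as TGCGCNC or TGCACNC on both strands, with overlapping matches counted. It occurred 3 times in the Mt1 window, 4 times in that of Mt2 and once in that of Mt3. Of all 32851 promoters, 25.7% hold at least 1 match, 1.97% at least 3 and 0.518% at least 4. The 31 genes have 38 windows, of which 11 hold at least 1, in 11 genes. The windows are chr8:94178839-94179138 for Mt1, chr8:94172368-94172667 for Mt2 and chr8:94152357-94152656 for Mt3, all on the plus strand; capitals mark the matches.
Mt1: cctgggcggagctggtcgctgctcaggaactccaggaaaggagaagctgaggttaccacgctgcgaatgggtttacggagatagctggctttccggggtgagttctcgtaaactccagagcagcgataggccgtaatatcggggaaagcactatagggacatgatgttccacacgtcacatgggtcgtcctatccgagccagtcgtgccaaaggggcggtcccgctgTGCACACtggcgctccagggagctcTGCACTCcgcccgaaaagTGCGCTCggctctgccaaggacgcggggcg
Mt2: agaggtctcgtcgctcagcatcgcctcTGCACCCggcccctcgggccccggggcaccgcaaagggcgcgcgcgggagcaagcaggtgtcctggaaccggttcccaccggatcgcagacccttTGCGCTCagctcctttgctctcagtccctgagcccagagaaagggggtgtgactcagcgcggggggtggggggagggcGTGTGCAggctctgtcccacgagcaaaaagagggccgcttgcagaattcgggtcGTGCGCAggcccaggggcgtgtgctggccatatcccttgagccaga
Mt3: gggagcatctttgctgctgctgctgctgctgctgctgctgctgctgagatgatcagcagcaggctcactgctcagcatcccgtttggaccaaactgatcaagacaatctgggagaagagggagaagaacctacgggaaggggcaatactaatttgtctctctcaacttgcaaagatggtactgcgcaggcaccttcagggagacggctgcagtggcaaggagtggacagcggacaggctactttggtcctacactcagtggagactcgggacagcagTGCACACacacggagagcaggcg

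Gfap carried a site of the type bound by STAT factors, which act downstream of the cytokines of injury. The pattern TTCNNNGAA, its own reverse complement, was searched in the same windows; 8.30% of all promoters hold it. Of the 38 windows of the 31 genes 4 did, in Gfap, Aldoc, Acsbg1 and Ntsr2, of which 3 are homeostatic. The AP-1 pattern TGANTCA, searched on both strands, was in 3 of the 38 windows, of Cp, F3 and Mt2, and in 7.81% of all promoters. For the STAT pattern, the windows of Vim, Serpina3n, Lcn2, Cd44, S1pr3 and Cp held no match. That of Gfap, chr11:102897151-102897450 on the minus strand, is shown because Gfap was the reactive gene that went with the homeostatic ones; capitals mark the match.
Gfap: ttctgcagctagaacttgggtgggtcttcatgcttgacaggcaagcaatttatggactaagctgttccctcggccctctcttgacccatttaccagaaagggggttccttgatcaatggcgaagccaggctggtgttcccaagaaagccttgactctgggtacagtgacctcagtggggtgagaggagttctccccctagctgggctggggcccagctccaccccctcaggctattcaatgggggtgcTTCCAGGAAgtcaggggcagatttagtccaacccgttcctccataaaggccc

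The balance of the sets differed between libraries. The mean level of the homeostatic genes minus that of the reactive genes, on the log2 scale, was -1.44, -1.28 and 0.40 under vehicle. Under 15-HETrE it was 0.29, -0.29 and 3.14. In the first prefix, as between the combined libraries, 15-HETrE was above vehicle, while vehicle combined lay above both 15-HETrE libraries that are not combined. Without Gfap among the reactive genes the differences were -1.53, -1.62 and 0.82 under vehicle and 0.63, -0.18 and 3.91 under 15-HETrE. The combined comparison rests on a single library per group.

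**Figure D5:**
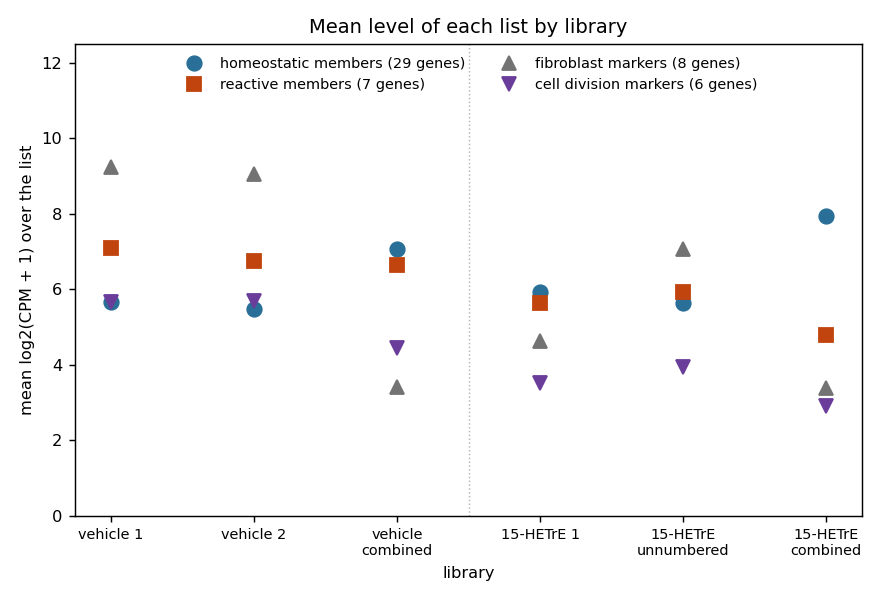
Mean log2(CPM + 1) of the homeostatic and the reactive genes, of 8 fibroblast markers (Pdgfra included) and of 6 cell division markers in each library, with vehicle on the left of the dotted line. The homeostatic mean is above the reactive mean in both combined libraries and in 15-HETrE 1, by 3.14 in 15-HETrE combined, and below it in the other 3.

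Further homeostatic astrocyte genes were also higher in the combined libraries. Of 25 further homeostatic genes, 17 passed as higher in the combined libraries, where 1.25% of all genes did, with a median difference of 2.35, and 0 as lower, where 0.93% did. Slc1a3, a glutamate transporter, had the smallest p, with 67.0, 52.3 and 559.8 CPM under vehicle and 163, 88.5 and 1055 CPM under 15-HETrE (log2 difference 3.17, SE 0.27, adjusted p 0.00290, limma). Pla2g7, a secreted phospholipase, and the connexin gene Gjb6 differed by 3.38 and 3.80, and Atp1b2 by 1.83 (adjusted p 0.0180, limma). Together the 36 and the 25 genes made up 35 of the 182 genes called higher in the combined libraries. In 15-HETrE against vehicle, 21 of the 25 were positive with a median of 0.80, and 0 passed, where 0.0% of all genes did.

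Further reactive genes did not pass for treatment, where 0 of all 14523 genes tested did (0.0% higher and 0.0% lower, limma). Of 6 that astrocytes raise in many kinds of injury, all 6 had negative differences for 15-HETrE, with a median of -2.06, and 0 passed. In the first prefix all 6 were negative, with a median of -3.28. Between the combined libraries 4 were negative and 1, Cxcl10, was positive, with a median of -0.68, and Aspg was at 0 in both. For 15-HETrE unnumbered against vehicle 1 and vehicle 2, 5 were negative and 1, Steap4, was positive. Timp1, a metalloproteinase inhibitor, gave 94.1, 59.4 and 6.83 CPM under vehicle and 0.319, 3.82 and 1.22 CPM under 15-HETrE, without overlap. The small heat shock protein gene Hspb1 gave 37.3, 58.4 and 29.5 CPM and 1.91, 14.5 and 11.4 CPM, also without overlap. Of 12 genes of the inflammatory type, 11 passed the filter; 5 were positive and 6 negative for 15-HETrE, with a median of -0.86, and 0 passed. Of 12 genes of the ischemic type, 10 passed the filter, and all 10 were negative for 15-HETrE, with a median of -1.54. Cd109, with a mean of 0.54 CPM under 15-HETrE, reached the filter only through vehicle, which fixes its sign. In the first prefix 1 of the 10 was positive, and between the combined libraries 2 were. Negative in both were 6, where 26.3% of all genes were. None of the 10 passed the test. For the combined libraries, Serping1 (complement C1 inhibitor) and Emp1 (a membrane protein) passed as lower, where 0.93% of all genes did. Their differences were -3.65 and -4.01 on the log2 scale (adjusted p 0.0414 and 0.00533, limma). In edgeR the call of Serping1 was lost (adjusted p 0.0958) and that of Emp1 was not (adjusted p 0.0356). These genes are active in fibroblasts too, whose markers were lower in the combined libraries with a median of -4.80; their part in this was not tested.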

How the data were processed

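The deposited table holds a signal per gene and library that the authors scaled as CPM with a size factor per library, as the values show. The submitters' processing notes list edgeR, featureCounts, HISAT2 and Trimmomatic and the build mm10; what versions, settings and annotation were used was not given in the sources used here. Values in each column were whole multiples of the value of 1 read (100% within 1e-04 reads), and recomputed TMM factors gave the deposited scaling. Columns were assigned by name; the number of unused columns was 0. Depth was 5405245 to 22558400 reads.

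Genes whose mean reached 1 CPM were kept (14523), and log2(CPM + 1) was fitted with limma 3.58.1 in R 4.3.3 (variance trend, two-sided, Benjamini-Hochberg, threshold 0.05). Treatment was the only term; combined against other libraries was fitted with treatment as a second term. The test was designed for CPM and was used unchanged on this scaled CPM. Fold changes on this scale are understated for low genes. edgeR 4.0.16 and DESeq2 1.42.0 were run on recovered reads. The fits were tested on simulated data with 200 genes changed 4-fold. In each comparison 61.5% of these were found, with 6 false calls for treatment and 12 for combined. The simulated spread was estimated with the combined term in the fit. It thus leaves out the spread that the combined libraries add to the treatment fit. Exon lengths and positions come from GENCODE M21 (GRCm38, the same assembly as mm10).

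The genes, the lists and the tests were chosen with earlier results of these data known. All 36 genes are named; of other lists, up to 4 genes with the smallest p over both fits, and Atp1b2; 1 gene this rule names is not reported here. Plpp3 is listed under an older symbol.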

Additional observations from a re-analysis of the deposited data

Results flagged for a closer look

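For 2 genes 15-HETrE and vehicle stood in opposite order in the first prefix and between the combined libraries, each by over 0.5 on the log2 scale; the change of order was not tested. Id3 had a difference of -2.96 in the first prefix. Between the combined libraries it was 1.78, where vehicle combined held 29 reads and 15-HETrE combined 151. For Dio2 the values were -0.91 and 1.26.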

How the results depend on the processing

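No paired analysis was possible because the columns of both groups share only 1 replicate number. Treatment calls over all genes (higher and lower) were 1059 and 1366 with library weights, 35 and 130 in DESeq2, 1 and 7 with the prefix as a batch term, and 75 lower without both combined libraries. When 1 library was left out, 0 to 45 genes were called lower. Of the 36 genes, 14 higher and 9 lower were called with library weights, 1 lower in DESeq2 and 2 lower without both combined libraries, and 0 to 1 lower when 1 library was left out. The reactive median for treatment then ran from -1.81 to -1.03, and homeostatic minus reactive from 1.05 to 3.16.

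Combined calls over all genes (higher and lower) were 0 and 1 with no filter, 8 and 5 with library weights, 96 and 40 in edgeR, 692 and 763 in DESeq2, and 0 and 0 without the treatment term. When 1 library was left out they ran from 0 to 312 higher and 0 to 949 lower. Of the 36 genes, 0 were called higher with no filter, 2 with library weights and 0 without the treatment term. None (0) was called lower with a pseudocount of 0.5, a filter at 5 CPM, no filter, library weights, edgeR or no treatment term. Leaving out 1 library gave 0 to 19 higher and 0 to 2 lower, and homeostatic minus reactive medians from 2.01 to 3.47. The cause was not tested, except that leaving out a library leaves fewer samples.

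For treatment, the sign turned for some genes. With library weights Sox9 was -0.083, Glul -0.059 and Fabp7 0.22. Without both combined libraries Sox9 was -0.34, Glul -0.15, Acsbg1 -0.10 and Sparcl1 -0.11. Dio2 was 0.18 in edgeR, 0.18 in DESeq2 and 0.021 with the prefix term. Leaving out 1 library gave ranges that cross 0: Sox9 -0.88 to 0.58, Glul -0.26 to 0.24, Ndrg2 -0.043 to 1.54, Ntsr2 -0.11 to 2.43, Acsbg1 -0.85 to 1.10, Mt3 -0.36 to 1.25, Fabp7 -0.86 to 0.46, Dio2 -1.65 to 0.23, Sparcl1 -0.24 to 0.67. For combined they were Mt2 -0.62 to 1.65, Cd44 -4.04 to 0.59, Cp -0.97 to 0.34, Id3 -3.82 to 0.29, F3 -0.89 to 1.48. No other planned setting turned the sign of any of the 36 genes in either comparison. Lcn2 had 0 reads in 3 libraries.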
